A study of Mus musculus with 9 samples.

Results

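The genes described here encode the trains and motors of intraflagellar transport. They were chosen by name, as 36 known subunits and close partners of this machinery: 6 of the IFT-A complex, 18 of IFT-B (12 of its B1 core and 6 of its peripheral B2 part), 4 of the motor dynein-2, 5 of the motor kinesin-2 and 3 that tie cargo or small GTPases to the trains. All 36 were found among the 53379 Ensembl gene identifiers of the count tables. All 36 also passed the filter on low counts, which left 19572 genes for testing.

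Cilia have no ribosomes, so the proteins of the growing axoneme are carried in along its microtubules. IFT-B trains powered by kinesin-2 move from the base to the tip, and dynein-2 with IFT-A brings them back. IFT-A also takes membrane receptors into the cilium, through the adaptor Tulp3. Progenitors of the embryonic brain carry a single primary cilium, whereas ependymal cells carry tufts of motile cilia, and both kinds are built by this machinery.

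The study delivered plasmids into the forebrain of C57Bl6DBa2 mouse embryos by in utero electroporation at E14.5, and sorted the fluorescent cells 2 days later, at E16.5. The first group received pCAGGS-GemC1, the second pCAAGS-Mcidas (spelled so in the labels), and the third the H2B-GFP reporter. The protocol joins factor and H2B-GFP with "and/or", so whether the GemC1 and Mcidas cells also carried H2B-GFP is not stated sample by sample, although all were sorted as GFP-positive. GemC1 (gene symbol Gmnc) and Mcidas are nuclear relatives of geminin that switch on multiciliogenesis, and the series asks how GemC1 does so. The plasmid is CAG-driven, so expression was forced in whichever cells took it up and remained fluorescent. The labels name the sorted cells neural progenitors and give no litters or surgeries for the 3 libraries of a group, so a p-value here speaks of the spread among these 9 libraries, which may be technical.

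Libraries held between 22914704 and 41163917 counts. Gmnc was at 223.2 to 317.3 CPM (counts scaled to library size with TMM factors) in the GemC1 libraries, at most 0.26 CPM in the Mcidas libraries and 0 CPM in the GFP libraries. Mcidas was at 60.3 to 76.8 CPM in the GemC1 libraries, 387.5 to 596.9 CPM in the Mcidas libraries and 0.647 to 0.69 CPM in the GFP libraries. Summed over 9 radial glia markers, the level was 1239 to 1413 CPM with GemC1, 879.5 to 1133 CPM with Mcidas and 849.7 to 1100 CPM with GFP, of which Fabp7 made up 314.7 to 695.9 CPM. Of these 9 markers 6 had positive log2 fold changes with GemC1 (median 0.34) and 5 with Mcidas (median 0.09). Hes5 alone was called, lower with Mcidas (-0.59 ± 0.14, adjusted p = 0.0337). Hes1 was at -0.75 ± 0.23 with GemC1 (adjusted p = 0.0784). The 4 intermediate progenitor markers summed to 849.1 to 1023 CPM with GemC1, 768.0 to 1056 with Mcidas and 1008 to 1030 with GFP. Of these 4, 1 had a positive log2 fold change with GemC1 (median -0.15) and 0 with Mcidas (median -0.33). Neurog2 alone was called, lower with GemC1 (-0.52 ± 0.11, adjusted p = 0.02). Of 24 microglia markers 22 were tested, and 11 (50%) rose in the GemC1 group and 2 (9.09%) in the Mcidas group. Of all genes tested 3.86% and 4.03% rose. The markers' median log2 fold changes were 2.17 and 1.26. Summed over the 24 markers, the level was 93.9 to 136.4 CPM in the GemC1 libraries, 57.5 to 86.9 CPM in the Mcidas libraries and 36 to 54.8 CPM in the GFP libraries. Mrc1, which was not tested, was at 0 in 5 of the 9 libraries. Of 10 choroid plexus markers 3 were tested. Clic6 was called higher with both factors, while Ttr had at most 1 count in any library. The part of these cell types in the results below was not tested. In these bulk libraries fewer cells making a transcript and less RNA per cell cannot be told apart.

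Some of the train subunits and most dynein-2 genes rose with each factor, and no kinesin-2 gene was called. In the GemC1 group 13 of 36 members rose and 0 fell (edgeR quasi-likelihood test, Benjamini-Hochberg adjusted p under 0.05 over all genes tested). That is 36.1% of the members, where 3.86% of all genes tested rose and 1.32% fell (5.19% in all). Their median log2 fold change was 0.41, against -0.0004 over all genes tested. Every GemC1 library lay above every GFP library for 20 members and below for 2, where 13.2% and 11.7% of all genes separated in those directions. At an unadjusted p under 0.05 the members numbered 24 higher and 1 lower, where 10.4% and 9.03% of all genes did. DESeq2 called 19 higher and 1 lower, where it called 5.9% and 3.39% of all genes. The lower one was Ttc21b each time. The count of 13 was 8 without GemC1 replicate 2, 8 without GemC1 replicate 3, 7 without GFP replicate 2 and 5 without GFP replicate 3.

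In the Mcidas group 18 of 36 members rose and 0 fell in the same test, or 50% of the members, where 4.03% of all genes tested rose and 0.327% fell (4.35% in all). The median log2 fold change of the members was 0.48, against -0.0281 over all genes. Groups separated with Mcidas higher for 25 members and with Mcidas lower for 1, where 10.7% and 8.87% of all genes did so. At an unadjusted p under 0.05, 25 members were higher and 1, Kif3c, was lower, where 8.65% and 3.97% of all genes were. DESeq2 called 20 higher and 0 lower, where it called 5.42% and 0.649% of all genes. The count of 18 was 11 without Mcidas replicate 2, 10 without Mcidas replicate 3, 11 without GFP replicate 1 and 10 without GFP replicate 3. Both comparisons use the same 3 GFP libraries. File names of the Mcidas libraries bear a year unlike that of the GFP and GemC1 libraries. If the year marks a batch, batch and Mcidas cannot be told apart. Of the members, 11 were called higher with both factors, 2 with GemC1 alone and 7 with Mcidas alone. The share of all genes called in both comparisons was not counted. A call with 1 factor alone depends on the threshold and is not by itself a difference between the factors. Compared directly, 0 of the 36 members were called. The 11 were Ift122, Wdr19, Wdr35, Ift22, Ift74, Ttc30b, Ift80, Cluap1, Dync2li1, Wdr34 and Wdr60.

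**Figure D1:**
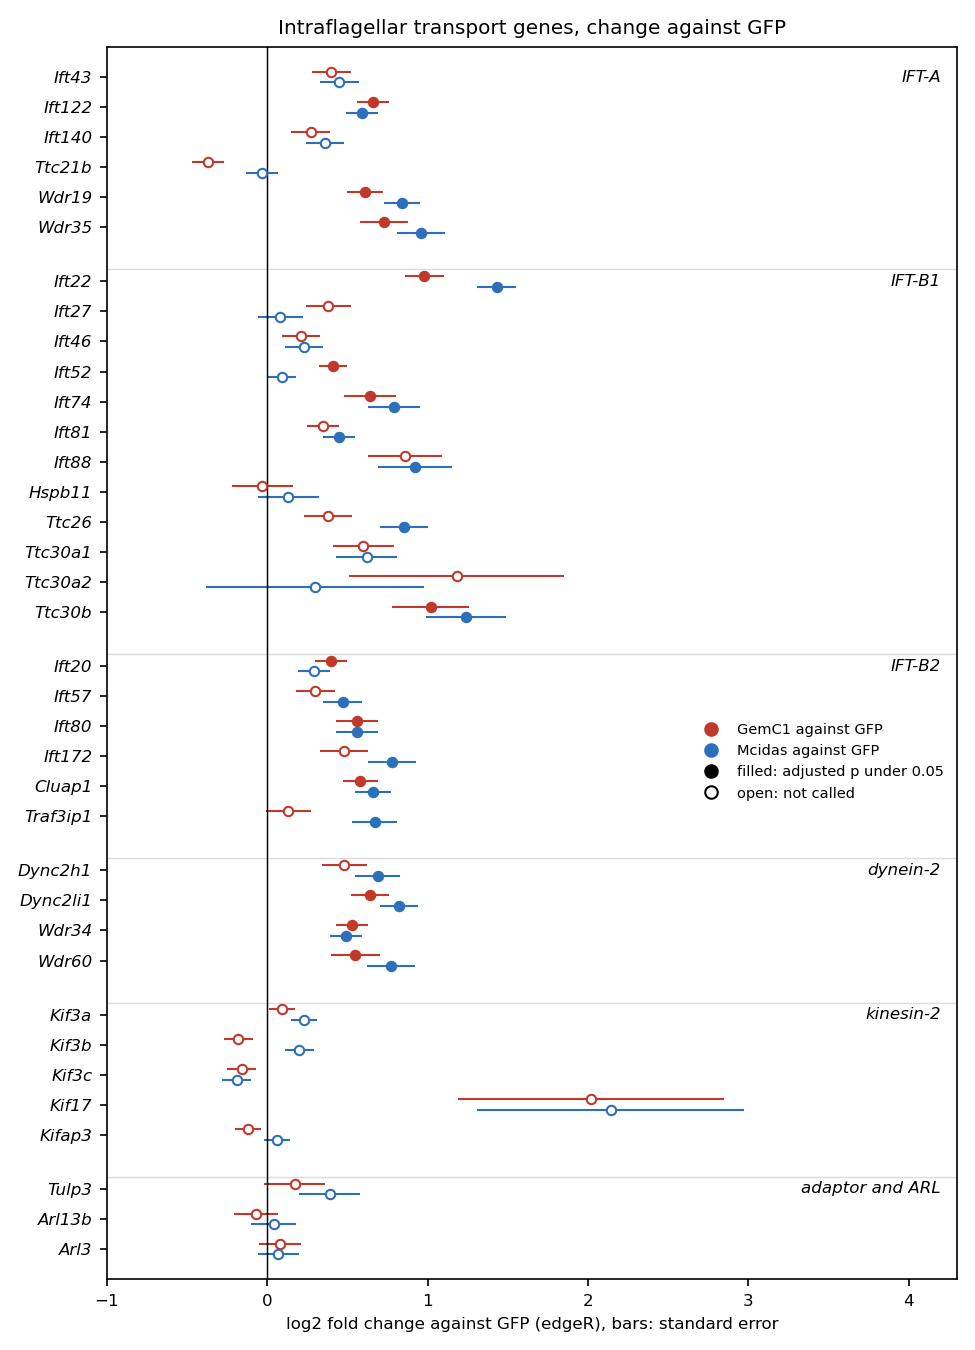
Log2 fold change of the 36 members (x axis) in the GemC1 group (red) and the Mcidas group (blue) against GFP, with bars of 1 standard error, members grouped by subcomplex down the page and filled points called at an adjusted p under 0.05. Most IFT-A, IFT-B and dynein-2 points lie between 0 and 1, Ift22 reaches 1.43 with Mcidas, and the kinesin-2 genes other than the scarce Kif17 lie within 0.23 of 0.

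The promoters were searched for the X-box, the binding site of the RFX factors, which control many ciliary genes from worms to mammals. RefSeq promoters (build GRCm38.p6, 250 bases before to 50 after the start) were matched for 31 of the 36 members, and Ift122, Ift81, Ttc30b, Ift80 and Dync2li1 had no entry. Each of those without an entry was called higher in at least 1 group. The motif was spelled as GTTNCC followed by GGNAAC with 0 to 3 bases between them, on either strand, with at most 1 mismatch in the 10 fixed letters. It was found in 7 of 31 member promoters (22.6%), where 6.1% of 27025 genes of the table and 5.4% of its 32851 promoters held it. The 7 stretches are shown because they come from the only member promoters with a match at this setting. The best match of each promoter is shown, and capitals mark it with its spacer.
Ift22 (B1 core; chr5:136908079-136908108, plus strand): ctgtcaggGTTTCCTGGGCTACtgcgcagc
Ift52 (B1 core; chr2:163017338-163017366, plus strand): atacagtcTTTACCGGGAAACgggccagc
Ttc26 (B1 core; chr6:38381483-38381512, plus strand): ccggcggcGTTGCCGTGGAAACggagctcg
Ttc30a2 (B1 core; chr2:75978182-75978211, minus strand): gttggcttGTTGCCATGGGAACaagcacac
Ift57 (B2; chr16:49699226-49699254, plus strand): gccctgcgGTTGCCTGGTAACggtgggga
Kif3c (kinesin-2; chr12:3364948-3364977, plus strand): gaatggcgGTTGCCGAGAGAACacgcgtgg
Kif17 (kinesin-2; chr4:138262170-138262198, plus strand): tcacggagGTTGCCCAGCAACggcgaacg
Ttc26, Ttc30a2 and Ift57 matched with 0 mismatches, as did 0.9% of all genes. The Kif17 promoter searched begins at 138262001, well inside the annotated gene, which runs from 138250435 to 138301967 on the plus strand. The Ift46 promoter begins at 44772759, inside a plus-strand gene that starts at 44767908. The Dync2h1 promoter ends at 7177308, inside a minus-strand gene that ends at 7184446. Neither of these 2 promoters held a match. By subcomplex the matches fell in 4 of 10 B1, 1 of 5 B2 and 2 of 5 kinesin-2 promoters, and in 0 of 5 IFT-A, 0 of 3 dynein-2 and 0 of 3 adaptor or ARL promoters. Of the 7 genes, Ift22, Ift52, Ttc26 and Ift57 rose in at least 1 group, while Ttc30a2, Kif3c and Kif17 were not called in either. Among all 36 members 20 rose in at least 1 group. That count includes the genes without a promoter entry, each of which rose, so it is not a like base for the 7. The single arm GTTGCC was present in 45.2% of member promoters and 14.1% of all genes, and it also counts arms of full matches. The forkhead site TGTTTAC stood in 0 of 31 member promoters and in 4.1% of all genes. The E2F site, TTTCCCGC or TTTGGCGC, stood in 6.5% of member promoters and 1.8% of all genes. These matches are letters in a window and do not show binding. Among RFX genes, picked here with their values known, Rfx2 rose by 2.27 ± 0.29 (SE) on the log2 scale with GemC1 and by 2.68 ± 0.29 with Mcidas (adjusted p = 0.000496 and 0.000107), whereas Rfx3 changed by -0.20 ± 0.10 and 0.05 ± 0.10 and was not called.

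IFT-A, the complex of the return trip and of receptor import, had 3 of 6 members called higher with GemC1 and the same 3 called with Mcidas: Ift122, Wdr19 and Wdr35. Each is a WD-repeat protein. Ift122 had 91.7, 88.1 and 101.4 CPM in the GemC1 libraries, 78.8, 91.6 and 98.3 CPM in the Mcidas libraries, and 58.4, 63.1 and 56.4 CPM in the GFP libraries. Every library with a factor was above every GFP library. The log2 fold change was 0.66 ± 0.10 with GemC1 and 0.59 ± 0.10 with Mcidas (adjusted p = 0.00159 and 0.00283), and neither call was lost in any of 15 alternative analyses.

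Wdr19, a core subunit whose human gene is mutated in skeletal ciliopathies, had 47.2, 38.2 and 37.9 CPM in the GemC1 libraries, 47.2, 45.1 and 52.1 CPM in the Mcidas libraries, and 26.7, 27.5 and 26.4 CPM in the GFP libraries. The GFP libraries lay close together and all below the others. It rose by 0.61 ± 0.11 on the log2 scale with GemC1 and by 0.84 ± 0.11 with Mcidas (adjusted p = 0.00657 and 0.000468). Wdr35 had 98.4, 73.8 and 102.5 CPM in the GemC1 libraries, 88.9, 108.6 and 124.8 CPM in the Mcidas libraries, and 59.7, 56.9 and 48.5 CPM in the GFP libraries. Groups did not overlap with GFP, though the GemC1 and Mcidas libraries spread more widely than the GFP ones. Its log2 fold change was 0.73 ± 0.15 with GemC1 and 0.96 ± 0.15 with Mcidas (adjusted p = 0.0109 and 0.00129), and the GemC1 call was lost without GFP replicate 3 (adjusted p = 0.0686).

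The other 3 IFT-A members were not called. Ift43, a small peripheral subunit, had 38.3, 37.3 and 34.1 CPM in the GemC1 libraries, 33.7, 43.6 and 35.9 CPM in the Mcidas libraries, and 26.7, 27.3 and 29.2 CPM in the GFP libraries. All 6 libraries with a factor were above GFP, with log2 fold changes of 0.40 ± 0.12 and 0.45 ± 0.12 that missed the threshold (adjusted p = 0.0723 and 0.0529). Ift140, another WD-repeat subunit, differed from GFP by 0.27 ± 0.12 with GemC1 and 0.36 ± 0.12 with Mcidas (adjusted p = 0.23 and 0.158). Ttc21b, whose human gene is mutated in nephronophthisis, stood apart in sign. It had 31.0, 27.6 and 29.6 CPM in the GemC1 libraries, 39.0, 34.9 and 37.8 CPM in the Mcidas libraries, and 35.4, 38.3 and 40.7 CPM in the GFP libraries. The GemC1 libraries were the 3 lowest of all 9. The log2 fold change was -0.37 ± 0.10 with GemC1 and -0.03 ± 0.10 with Mcidas (adjusted p = 0.0579 and 0.946 by edgeR), and DESeq2 called the first lower (adjusted p = 0.00919).

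IFT-B had 7 of 18 members called higher with GemC1 and 11 of 18 with Mcidas, with medians of 0.44 and 0.59 on the log2 scale. Of these, 5 were called with both factors. The GemC1 count was 3 without GemC1 replicate 2, 3 without GemC1 replicate 3, 4 without GFP replicate 1, 2 without GFP replicate 2 and 2 without GFP replicate 3. It was 11 by DESeq2 and 3 with the replicate number as a block. The Mcidas count was 5 without Mcidas replicate 2, 5 without Mcidas replicate 3, 6 without GFP replicate 1, 6 without GFP replicate 2 and 5 without GFP replicate 3.

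In the B1 core, the part that holds tubulin-binding and train-forming subunits, 4 of 12 members rose with GemC1 and 6 of 12 with Mcidas. Ift22, a small GTPase of the core, had the smallest adjusted p of all members in both comparisons. It had 50.2, 53.3 and 58.7 CPM in the GemC1 libraries, 61.1, 78.3 and 82.0 CPM in the Mcidas libraries, and 30.3, 26.3 and 25.7 CPM in the GFP libraries. The 3 groups did not overlap, with Mcidas highest. Ift22 was 1.97-fold higher with GemC1 (log2 fold change 0.98 ± 0.12, adjusted p = 0.000402) and 2.69-fold higher with Mcidas (1.43 ± 0.12, adjusted p = 1.48e-05), and no alternative removed either call.

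Ttc26, known in Chlamydomonas for carrying motility proteins, had 37.4, 30.4 and 39.6 CPM in the GemC1 libraries, 43.3, 54.6 and 51.7 CPM in the Mcidas libraries, and 25.8, 33.5 and 23.3 CPM in the GFP libraries. The Mcidas libraries were above all others, while GemC1 and GFP libraries overlapped. It rose with Mcidas by 0.85 ± 0.15 on the log2 scale (adjusted p = 0.00457) and was not called with GemC1 (0.38 ± 0.15, adjusted p = 0.193). Ift74, which with Ift81 binds tubulin, had 33.7, 43.6 and 36.9 CPM in the GemC1 libraries, 32.2, 45.5 and 48.6 CPM in the Mcidas libraries, and 27.4, 21.8 and 24 CPM in the GFP libraries. All 6 libraries with a factor were above GFP. The log2 fold change was 0.64 ± 0.16 with GemC1 and 0.79 ± 0.16 with Mcidas (adjusted p = 0.0377 and 0.0112), calls lost in 6 and 4 of the 15 alternatives.

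Ift81 rose with Mcidas by 0.45 ± 0.10 (adjusted p = 0.0214, lost in 4 of 15 alternatives) and was at 0.35 ± 0.10 with GemC1 (adjusted p = 0.0691). Ift88, the subunit whose loss in mice stops cilium assembly, had 14.3, 23.2 and 17.0 CPM in the GemC1 libraries, 12.6, 20.6 and 23.5 CPM in the Mcidas libraries, and 10.1, 8.94 and 11 CPM in the GFP libraries. Every library with a factor was above GFP, but replicates within those groups differed widely. The log2 fold change was 0.86 ± 0.23 with GemC1 and 0.92 ± 0.23 with Mcidas (adjusted p = 0.0523 and 0.0431), and the Mcidas call was lost in 7 of 15 alternatives. Ift52, the scaffold that joins B1 to B2, was called with GemC1 and not with Mcidas. It had 56.2, 62.3 and 62.4 CPM in the GemC1 libraries, 50.7, 44.0 and 49.9 CPM in the Mcidas libraries, and 44.4, 47.6 and 44.1 CPM in the GFP libraries. The GemC1 libraries were the 3 highest, with a log2 fold change of 0.41 ± 0.09 against 0.09 ± 0.09 for Mcidas (adjusted p = 0.0251 and 0.814), and the GemC1 call was lost in 6 of 15 alternatives.

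The mouse has 3 neighbouring copies of the core subunit Ttc30 on chromosome 2 (mm10), Ttc30a1 at 75978247 to 75981967, Ttc30a2 at 75975740 to 75978170 and Ttc30b at 75935849 to 75938585. Of all 75-base stretches of their transcripts, 26.57%, 45.61% and 25.54% also occur in another gene, so the counting may have split or dropped their reads and their separate values are uncertain. Ttc30b had 35.1, 23.0 and 34.8 CPM in the GemC1 libraries, 22.1, 42.3 and 44.3 CPM in the Mcidas libraries, and between 13.5 and 17.9 CPM in the GFP libraries. It was called in both groups, at 1.02 ± 0.24 and 1.24 ± 0.25 on the log2 scale (adjusted p = 0.0323 and 0.00932), calls lost in 6 and 4 of 15 alternatives. Ttc30a1 was at 0.60 ± 0.19 and 0.62 ± 0.19 and was not called (adjusted p = 0.0941 and 0.112). Ttc30a2, at most 1.76 CPM in any library, was at 1.18 ± 0.67 and 0.30 ± 0.68 and was not called. The sum of the 3 copies averaged 42 ± 8.92 CPM with GemC1, 46.8 ± 13.4 CPM with Mcidas and 22.3 ± 1.44 CPM with GFP (SD, n = 3), and no library with a factor fell within the GFP range.

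The remaining B1 genes showed smaller differences. Hspb11, a small subunit that pairs with Ift27, had the smallest change of the core with GemC1, at -0.03 ± 0.19, and was at 0.13 ± 0.19 with Mcidas (adjusted p = 0.957 and 0.88). Its level was 5.15, 4.74 and 4.80 CPM in the GemC1 libraries, 4.69, 5.88 and 5.80 CPM in the Mcidas libraries, and 4.73, 4.99 and 5.28 CPM in the GFP libraries, with full overlap. Ift27, the GTPase that helps export the BBSome, was at 0.38 ± 0.14 and 0.08 ± 0.14 (adjusted p = 0.158 and 0.902). Ift46, an adaptor for dynein arms in the alga Chlamydomonas, was at 0.21 ± 0.12 and 0.23 ± 0.12 (adjusted p = 0.345 and 0.464).

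IFT-B2, joined to the core through Ift57 and Cluap1, had 3 of 6 members called higher with GemC1 and 5 of 6 with Mcidas, and each of the 6 was called in at least 1 comparison. Cluap1, needed for cilium assembly in mice, had 35.7, 37.8 and 33.7 CPM in the GemC1 libraries, 33.3, 39.7 and 40.7 CPM in the Mcidas libraries, and 23.7, 24.9 and 23.1 CPM in the GFP libraries. The GFP libraries were tight and below all others. It rose by 0.58 ± 0.11 with GemC1 and by 0.66 ± 0.11 with Mcidas on the log2 scale (adjusted p = 0.00857 and 0.00267), in all 15 alternatives. Of its 75-base stretches 30.98% are shared with Gm20695 and 1700016D08Rik, which overlap it, so some of its reads may belong to those genes.

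Ift172, known in Chlamydomonas for the turnaround of trains at the tip, had 97.8, 82.0 and 113.6 CPM in the GemC1 libraries, 101.4, 118.0 and 142.6 CPM in the Mcidas libraries, and 71.6, 79.7 and 59.3 CPM in the GFP libraries. No library with a factor overlapped GFP, although GemC1 replicate 2 came close to GFP replicate 2. The log2 fold change was 0.78 ± 0.15 with Mcidas (adjusted p = 0.0073) and 0.48 ± 0.15 with GemC1, which was not called (adjusted p = 0.0904). Traf3ip1, a microtubule-binding subunit, had 19.7, 16.8 and 18.7 CPM in the GemC1 libraries, 23.4, 31.3 and 25.5 CPM in the Mcidas libraries, and 16.4, 15.8 and 18.1 CPM in the GFP libraries. The Mcidas libraries were the 3 highest and GemC1 overlapped GFP. It was at 0.13 ± 0.14 with GemC1 and rose by 0.67 ± 0.14 with Mcidas (adjusted p = 0.659 and 0.0125), and the Mcidas call was lost in 3 of 15 alternatives.

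Ift80 had 39.9, 42.9 and 44.8 CPM in the GemC1 libraries, 35.7, 40.9 and 51.7 CPM in the Mcidas libraries, and 28.4, 30.9 and 27.4 CPM in the GFP libraries. Both groups were above GFP in every library. It was called with both factors, at 0.56 ± 0.13 each (adjusted p = 0.0293 and 0.0276), and each call was lost in 5 of 15 alternatives. Ift20, which also acts at the Golgi in sending membrane proteins to the cilium, was at 0.40 ± 0.10 with GemC1 (adjusted p = 0.0407, lost in 9 of 15 alternatives) and at 0.29 ± 0.10 with Mcidas (adjusted p = 0.201). Ift57, which contacts kinesin-2, rose by 0.47 ± 0.12 with Mcidas (adjusted p = 0.0415, lost in 4 of 15 alternatives) and was at 0.30 ± 0.12 with GemC1 (adjusted p = 0.173).

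Dynein-2, the motor of the return trip, had 3 of 4 members called higher with GemC1 and 4 of 4 with Mcidas. The GemC1 count was 1 without GFP replicate 3, and the Mcidas count was 2 without Mcidas replicate 3, GFP replicate 1 or GFP replicate 3. Dync2li1, the light intermediate chain, had 23.4, 26.3 and 23.2 CPM in the GemC1 libraries, 25.8, 27.2 and 29.7 CPM in the Mcidas libraries, and 16.4, 15.2 and 15.3 CPM in the GFP libraries. Both groups lay clear of GFP. It rose by 0.64 ± 0.12 with GemC1 and by 0.82 ± 0.12 with Mcidas (adjusted p = 0.00642 and 0.000769), in all 15 alternatives.

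Wdr34 and Wdr60 are the intermediate chains of the motor. Wdr34 had 61.2, 58.3 and 59.9 CPM in the GemC1 libraries, 53.4, 57 and 64.9 CPM in the Mcidas libraries, and 39.8, 45.2 and 39.3 CPM in the GFP libraries. Both groups were above GFP throughout, by 0.53 ± 0.10 and 0.49 ± 0.10 on the log2 scale (adjusted p = 0.00823 and 0.0107), calls lost in 1 and 3 of 15 alternatives. Wdr60 had 22.4, 24.2 and 23.5 CPM in the GemC1 libraries, 22.9, 30.6 and 28 CPM in the Mcidas libraries, and 13.3, 17.0 and 17.5 CPM in the GFP libraries. The groups again did not overlap with GFP. It rose by 0.77 ± 0.15 with Mcidas (adjusted p = 0.00678) and by 0.55 ± 0.15 with GemC1 (adjusted p = 0.048), a call lost in 8 of 15 alternatives.

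Dync2h1, the heavy chain with the motor domain, had 113.6, 97.1 and 113.7 CPM in the GemC1 libraries, 94.0, 127.0 and 154.1 CPM in the Mcidas libraries, and 77.1, 80.8 and 74.6 CPM in the GFP libraries. All libraries with a factor were higher than GFP, and Mcidas replicates 1 and 3 were the lowest and highest of those. The log2 fold change was 0.48 ± 0.14 with GemC1 (adjusted p = 0.0774) and 0.69 ± 0.14 with Mcidas (adjusted p = 0.0133), and the Mcidas call was lost in 4 of 15 alternatives.

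Kinesin-2, the outbound motor, had 0 of 5 members called in either group by edgeR, and DESeq2 also called 0. At an unadjusted p under 0.05, Kif17 was higher with GemC1, and Kif3a, Kif3b and Kif17 were higher and Kif3c lower with Mcidas. Kif3a pairs with Kif3b or Kif3c as the motor dimer, which also carries vesicles in axons. Kif3a had 120.2, 134.4 and 127.8 CPM in the GemC1 libraries, 128.9, 146.6 and 147.2 CPM in the Mcidas libraries, and 123.6, 114.8 and 121.7 CPM in the GFP libraries. GemC1 overlapped GFP and Mcidas lay just above it, at 0.09 ± 0.08 and 0.23 ± 0.08 on the log2 scale (adjusted p = 0.618 and 0.201).

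Kif3b had 50, 50 and 48.7 CPM in the GemC1 libraries, 61.9, 66.2 and 64.5 CPM in the Mcidas libraries, and 52.6, 61.6 and 53.8 CPM in the GFP libraries. The GemC1 libraries were the 3 lowest and the Mcidas libraries the 3 highest, with log2 fold changes of -0.18 ± 0.09 and 0.20 ± 0.09 against GFP (adjusted p = 0.301 and 0.387). Kif3c, the neuronal partner, had 272.6, 225.8 and 264.8 CPM in the GemC1 libraries, 256.8, 240.4 and 253.2 CPM in the Mcidas libraries, and 285.1, 268.2 and 302.3 CPM in the GFP libraries. It was at -0.16 ± 0.09 and -0.19 ± 0.09 (adjusted p = 0.32 and 0.389), and 38.91% of its 75-base stretches are shared with other genes, among them 1110002L01Rik on the opposite strand, whose reads this unstranded kit cannot separate. Kifap3, the accessory subunit that binds cargo, was at -0.12 ± 0.08 and 0.06 ± 0.08 (adjusted p = 0.47 and 0.864).

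Kif17, a homodimeric kinesin-2 of sensory cilia and dendrites, was scarce. It had 0.776, 0.508 and 1.05 CPM in the GemC1 libraries, 0.202, 1.74 and 0.606 CPM in the Mcidas libraries, and 0.235, 0.295 and 0.03 CPM in the GFP libraries, where 3 counts correspond to 0.0737 to 0.13 CPM. The fitted log2 fold changes were 2.02 ± 0.83 and 2.14 ± 0.83, and neither was called (adjusted p = 0.201 and 0.265). Neuron markers summed to 3842 to 4264 CPM in the GemC1 libraries, 3990 to 4676 CPM in the Mcidas libraries and 4668 to 5408 CPM in the GFP libraries. All 6 markers had negative log2 fold changes with both factors, with a median of -0.26 with GemC1 and -0.19 with Mcidas. Dcx alone was called, with GemC1 (-0.37 ± 0.08, adjusted p = 0.0233). With Mcidas Dcx was at -0.20 ± 0.08 (adjusted p = 0.31). The part of neuron content in the kinesin-2 values was not tested.

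**Figure D2:**
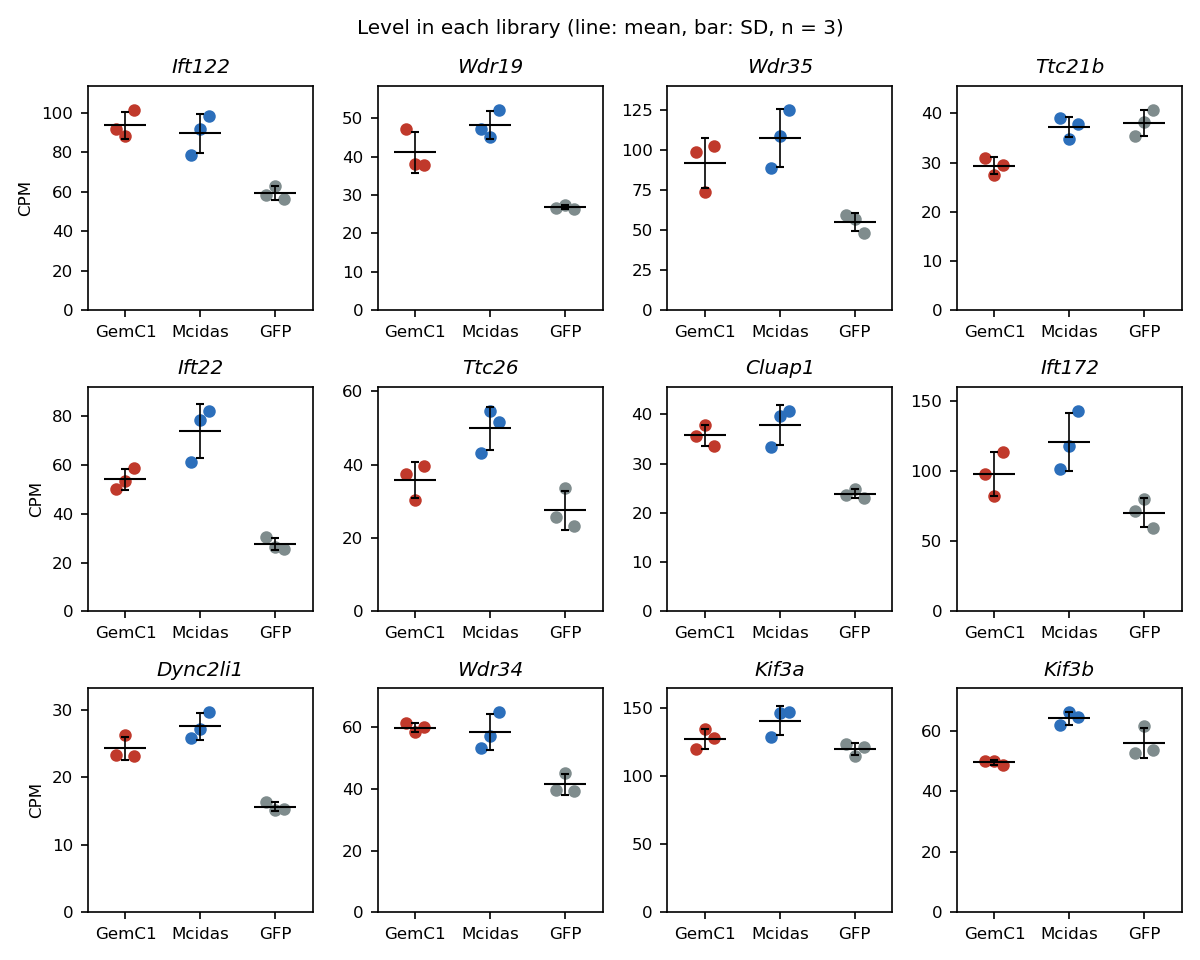
Level of 12 members in CPM (y axis, from 0) in each library of the GemC1, Mcidas and GFP groups, with the mean as a line and 1 SD as a bar (n = 3). In the IFT-A genes Ift122, Wdr19 and Wdr35, in Ift22, Cluap1 and Ift172 and in the dynein-2 genes Dync2li1 and Wdr34, every library with a factor lies above the GFP libraries; Kif3a overlaps between GemC1 and GFP, and Kif3b and Ttc21b are lowest with GemC1.

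Of the 3 linkers, 0 were called by edgeR or DESeq2 in either group, and 0 reached an unadjusted p under 0.05. Tulp3, the adaptor that hands membrane receptors to IFT-A, was at 0.17 ± 0.19 with GemC1 and 0.39 ± 0.19 with Mcidas (adjusted p = 0.691 and 0.432). Arl13b, a GTPase of the ciliary membrane, had 21.3, 18.3 and 21.6 CPM in the GemC1 libraries, 22.9, 19.8 and 23.2 CPM in the Mcidas libraries, and 18.4, 21.7 and 24.1 CPM in the GFP libraries, all overlapping. Arl3, the GTPase that Arl13b activates to release lipidated cargo, was at 0.08 ± 0.13 and 0.07 ± 0.13 (adjusted p = 0.798 and 0.904).

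Set side by side, the subcomplexes showed similar medians for IFT-A, IFT-B and dynein-2. With GemC1 the median log2 fold change was 0.51 for IFT-A, 0.44 for IFT-B, 0.54 for dynein-2 and -0.12 for kinesin-2. With Mcidas it was 0.52, 0.59, 0.73 and 0.20 in the same order. The same could be read in single libraries from the median log2 ratio to the GFP mean (CPM plus 0.5). For dynein-2 this was 0.55, 0.54 and 0.55 with GemC1, 0.44, 0.74 and 0.85 with Mcidas, and -0.03, 0.07 and -0.04 with GFP. For kinesin-2 it was -0.07, -0.08 and -0.11 with GemC1, 0.10, 0.24 and 0.20 with Mcidas, and between -0.06 and 0.02 with GFP. The difference between subcomplexes was not tested.

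Mcidas replicate 1 had the lowest median of the 6 libraries with a factor over all 36 members, at 0.29, against 0.61 and 0.51 in Mcidas replicates 2 and 3 and 0.35 to 0.49 with GemC1. The same library also had the lowest median over 8 genes of the multiciliated programme, at 4.35. The other Mcidas libraries were at 5.25 and 5.52, and the GemC1 libraries at 4.54 to 4.79. Without Mcidas replicate 1 the members called with Mcidas numbered 19. The summed level of all 36 members was 1995 ± 77.0 CPM with GemC1, 2160 ± 178.4 CPM with Mcidas and 1660 ± 12.7 CPM with GFP (SD, n = 3).

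**Figure D3:**
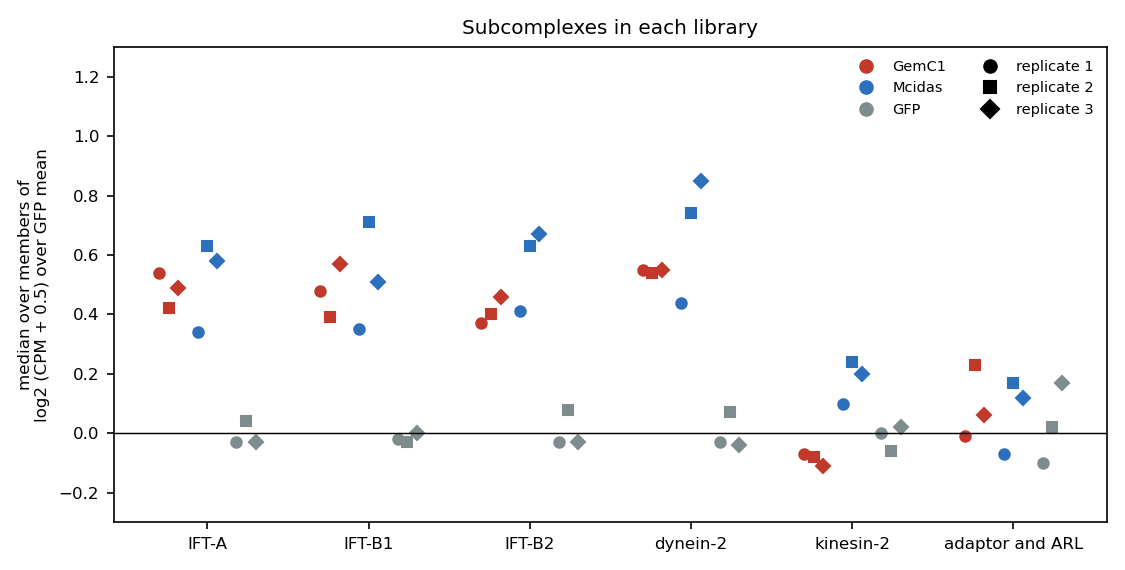
Median over the members of each subcomplex (x axis) of the log2 ratio of CPM plus 0.5 to the GFP mean (y axis), 1 point per library, coloured by group and shaped by replicate. Points of the GemC1 and Mcidas libraries lie above all GFP points for IFT-A, both parts of IFT-B and dynein-2, and Mcidas replicate 1 (blue circle) is the lowest Mcidas point throughout.

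Levels of different genes were compared per exon length, as TPM (transcripts scaled to a fixed total per library). In GFP cells 3 of the 5 kinesin-2 genes had the highest levels: Kif3c was at 133.4 ± 4.4 TPM, Kifap3 at 120.3 ± 7.37 TPM and Kif3a at 116.0 ± 2.74 TPM (SD, n = 3). The next gene, Ift20, was at 72.9 ± 4.01 TPM, and Wdr34, the most abundant dynein-2 gene, at 61.0 ± 6.42 TPM. Kif3b was at 34.5 ± 3.88 TPM, the 15th of the 36, among the train subunits. The heavy chain Dync2h1 was at 16.4 ± 1.11 TPM and Ift88 at 7.48 ± 0.565 TPM, and Kif17 was last at 0.143 ± 0.108 TPM. The median TPM of IFT-A genes was 37.2 ± 4.79 with GemC1, 41.0 ± 4.91 with Mcidas and 23.1 ± 2.32 with GFP. For IFT-B it was 42.9 ± 3.68, 49.8 ± 5.11 and 28.2 ± 1.34 in the GemC1, Mcidas and GFP groups, and for dynein-2 33.7 ± 0.529, 40.1 ± 5.01 and 22.7 ± 1.04 in that order. For kinesin-2 the medians were 107.1 ± 2.24 TPM with GemC1, 121.0 ± 2.86 TPM with Mcidas and 115.7 ± 2.87 TPM with GFP. Across the 36 genes the GFP level and the log2 fold change had a Spearman rho of -0.41 with GemC1 and -0.44 with Mcidas, a description only, since both measures contain the same GFP libraries.

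**Figure D4:**
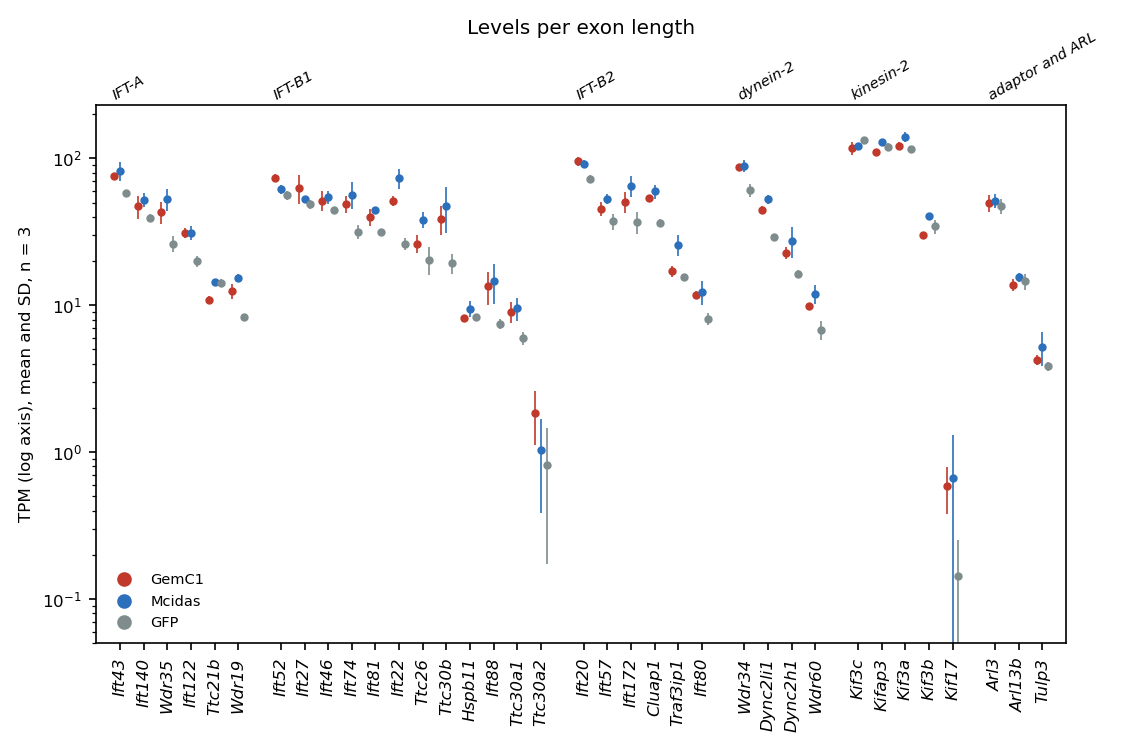
Level of each member in TPM (log y axis), mean and SD over 3 libraries, in the GemC1, Mcidas and GFP groups, with members ordered by GFP level within their subcomplex; the SD bars of Kif17 with Mcidas and GFP run below the axis. Kif3c, Kifap3 and Kif3a stand above 100 TPM in all groups, and the train subunits reach at most 95.5 TPM on average.

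GemC1 and Mcidas were then compared directly. Of the 36 members, 0 were higher and 0 lower with GemC1 than with Mcidas by edgeR, where 0.0153% and 0.0358% of all genes tested were (0.0511% in all). The median log2 fold change of the members was -0.13, against -0.0044 over all genes. At an unadjusted p under 0.05 Ift52 was higher and Ttc21b, Ift22, Ttc26, Traf3ip1 and Kif3b were lower with GemC1, where 6.37% and 6.67% of all genes were. DESeq2 called all of these except Ttc26, against 1% higher and 1.52% lower of all genes, and edgeR without the low-count filter called Ift22 lower. In these 6 genes the libraries of both groups did not overlap, as in 1 member for the higher direction and 6 for the lower out of 36, where 9.07% and 7.64% of all genes separated. The sizes were 0.32 ± 0.09 for Ift52, -0.34 ± 0.10 for Ttc21b, -0.45 ± 0.12 for Ift22, -0.48 ± 0.15 for Ttc26, -0.54 ± 0.14 for Traf3ip1 and -0.37 ± 0.09 for Kif3b (adjusted p from 0.155 to 0.225). File names of the Mcidas libraries bear a year unlike that of the other 6. If that year marks a batch, batch and factor cannot be told apart here or in Mcidas against GFP.

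Around the trains, 42 further genes of ciliary transport were read from lists of light chains, cargo adaptors, ARL partners, kinases, the BBSome and other kinesins. In the GemC1 group 11 rose (26.2%) and 0 fell, where 3.86% and 1.32% of all genes tested did. In the Mcidas group 15 rose (35.7%) and 0 fell, where 4.03% and 0.327% did. Of these genes 11 were called in both groups, and the share of all genes called in both was not counted. At an unadjusted p under 0.05, 19 and 20 were higher, where 10.4% and 8.65% of all genes were. With GemC1 3 were lower (Dynlt1a, Tub and Ick), where 9.03% of all genes were. DESeq2 called 15 and 17 higher, where it called 5.9% and 5.42% of all genes. With GemC1 it called Dynlt1a lower, where it called 3.39% of all genes lower. Among 10 dynein light chains that serve dynein-2, 2 rose with each factor. Dynlrb2, a roadblock light chain found in ciliated tissues, had 28.3, 27.4 and 26.5 CPM in the GemC1 libraries, 17.5, 38.9 and 47.0 CPM in the Mcidas libraries, and 0.0882, 0.417 and 0.06 CPM in the GFP libraries. It was near the counting floor in GFP and rose by 7.06 ± 0.50 and 7.39 ± 0.50 on the log2 scale (adjusted p = 8.48e-06 and 4.29e-06). Its paralog Dynlrb1, used by cytoplasmic dynein as well, had 175.4, 183.1 and 162.4 CPM in the GemC1 libraries, 156.0, 158.4 and 144.9 CPM in the Mcidas libraries, and 169.5, 148.6 and 172.2 CPM in the GFP libraries, and was not called; it was picked after its values were seen. Tctex1d2, a light chain specific to dynein-2, rose by 0.74 ± 0.14 and 0.85 ± 0.14 (adjusted p = 0.00908 and 0.00278).

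Of 8 cargo adaptors 1 rose, and it was called with both factors. It was Daw1, which loads outer dynein arms onto trains, at 5.06 ± 0.68 with GemC1 and 5.82 ± 0.68 with Mcidas on the log2 scale (adjusted p = 0.000622 and 0.000157). Its level was 2.64, 4.10 and 2.93 CPM in the GemC1 libraries, 1.76, 5.66 and 9.09 CPM in the Mcidas libraries, and 0.0294, 0.0737 and 0.18 CPM in the GFP libraries. Both groups were far above GFP, where the gene was close to the floor. Of 5 partners of the ARL GTPases 0 were called by edgeR or DESeq2 with GemC1, where Cys1 was higher at an unadjusted p under 0.05. Of 4 kinases that act on trains 2 rose with GemC1 and 3 with Mcidas. Mok had the smallest adjusted p, at 1.15 ± 0.16 and 1.42 ± 0.17 (adjusted p = 0.00106 and 0.000155). The scarcer Mak had the larger log2 fold changes, 1.25 ± 0.43 with GemC1, which was not called, and 2.34 ± 0.43 with Mcidas (adjusted p = 0.123 and 0.00549). Of 9 BBSome genes 3 rose with GemC1 and 4 with Mcidas. These included Arl6, the GTPase that recruits the BBSome to membranes, at 0.64 ± 0.11 and 0.61 ± 0.11 (adjusted p = 0.00473 and 0.00536), and Bbs9 at 0.70 ± 0.15 and 0.85 ± 0.15 (adjusted p = 0.0191 and 0.00496).

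Kinesins of cilia outside the kinesin-2 family rose in 3 of 6 cases with GemC1 and 5 of 6 with Mcidas. Kif9, whose Chlamydomonas counterpart sits on the central apparatus of motile cilia, had 20.6, 16.7 and 16.3 CPM in the GemC1 libraries, 14.2, 25 and 29.4 CPM in the Mcidas libraries, and 1.53, 3.05 and 1.38 CPM in the GFP libraries. It rose by 3.15 ± 0.32 and 3.51 ± 0.33 (adjusted p = 7.93e-05 and 2.48e-05). Kif27, a relative of the Hedgehog regulator Kif7 that is needed for motile cilia in mice, had a mean of 14.3 ± 2.11 CPM (SD, n = 3) in the GemC1 libraries, 12.6, 30.5 and 28 CPM in the Mcidas libraries, and 2.00, 0.761 and 1.71 CPM in the GFP libraries. All libraries with a factor were above GFP for both genes, and Kif27 rose by 3.27 ± 0.38 and 4.0 ± 0.38 (adjusted p = 0.000216 and 3.6e-05). Among the 36 members themselves the largest called changes were 1.02 with GemC1 (Ttc30b) and 1.43 with Mcidas (Ift22).

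**Figure D5:**
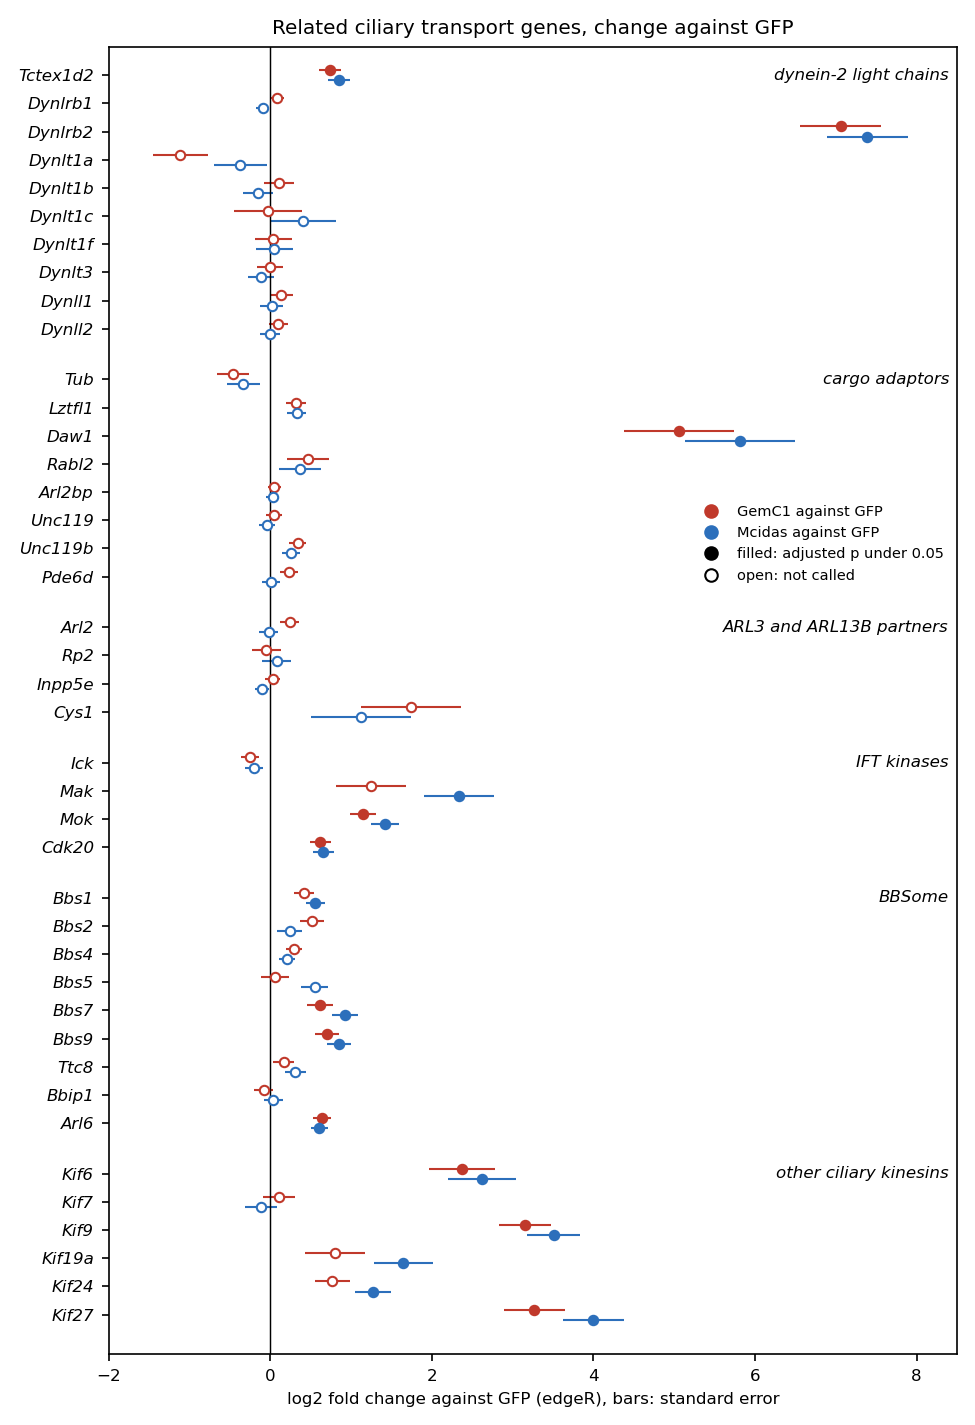
Log2 fold change of related ciliary transport genes (x axis) in the GemC1 group (red) and the Mcidas group (blue) against GFP, with bars of 1 standard error, grouped by list down the page, filled where the adjusted p was under 0.05. Dynlrb2, Daw1, Kif9, Kif27 and Kif6 lie beyond 2 with both factors and Mak does with Mcidas.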

How the data were processed

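RNA from sorted cells (10 ng) was amplified with SMART-Seq v4, made into Nextera XT libraries and read for 75 bp, per the labels' protocols; neither kit marks strand. The authors deposited raw counts per Ensembl gene for each of 9 libraries. Tools listed in the submitters' processing notes were DESeq2 1.8.1, HTSeq 0.5.3 and STAR 2.5.2b, with the build mm10 and no roles; the annotation release is not given in the sources used here. Of 53379 identifiers, 53274 matched GENCODE M21 (GRCm38). No replicate pair agreed within counting noise: chi-square over its degrees of freedom was 13.01 to 23.74.

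All 9 libraries entered one edgeR 4.0.16 quasi-likelihood fit (R 4.3.3, filterByExpr with minimum count 10 and total 15, TMM, robust, group as the only term), with Benjamini-Hochberg adjustment over 19572 genes and calls at 0.05. Fold changes are log2 ± SE; a floor is 3 counts per library, and floors cover counting error only. TPM used union exon length. Alternatives were DESeq2 1.42.0, its size factors in edgeR, no or a stricter filter (1 CPM), a replicate block, fits on only the groups compared and removal of each library, 15 in all. The edgeR step was tested on simulated data.

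The members and lists were chosen with earlier results of these data known. Values per library are given for called members, up to 4 per subcomplex by smallest adjusted p, the least changed, scarce and Ttc30 genes, and others added with values seen. Up to 2 called genes per related list are named. One gene of the related lists enters their counts but is not reported here.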

Additional observations from a re-analysis of the deposited data

How the results depend on the processing

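No called member changed sign in any of the 15 alternatives: of 1076 member values 961 kept direction and call, 80 lost the call, 26 gained it and 9 changed sign, none of them called. Those 9 were small log2 values: Hspb11 with GemC1 at 0.01 without GFP replicate 3 (range -0.06 to 0.01 over single removals); Arl13b with GemC1 at 0.01 without GemC1 replicate 2 and 0.02 without GFP replicate 3 (range -0.16 to 0.02); Arl13b with Mcidas at -0.00 without Mcidas replicate 3 and -0.05 without GFP replicate 1 (range -0.05 to 0.13); Ttc21b with Mcidas at 0.01 without Mcidas replicate 2 and 0.02 without GFP replicate 3 (range -0.08 to 0.02); and Ttc30a2 with Mcidas at -0.21 without Mcidas replicate 2 and -0.14 without GFP replicate 1 (range -0.21 to 1.08). With DESeq2, IFT-B members higher with GemC1 numbered 11, and 1 member (Ttc21b, in IFT-A) and 1 related gene (Dynlt1a) were lower. Over all genes DESeq2 called 1154 higher and 663 lower with GemC1, 127 lower with Mcidas, and 196 higher and 298 lower with GemC1 than with Mcidas, where it called 1 member higher and 4 lower. Without the low-count filter IFT-A had 5 members higher with Mcidas, 1 related gene was lower with GemC1, 1 member was lower with GemC1 than with Mcidas, and all genes numbered 557 lower with GemC1, 123 lower with Mcidas, and 66 higher and 129 lower with GemC1 than with Mcidas. A fit on only the groups compared called 2 genes lower with GemC1 than with Mcidas. The cause of these shifts was not tested.

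Same-numbered libraries did not deviate together (correlations from -0.129 to 0.046, against -0.079 to 0.168 for other numbers). With 3 libraries per group this cannot show whether equal numbers share a litter or surgery, which the labels do not give. With the replicate number as a block, 9 members were higher with GemC1 and 17 with Mcidas, IFT-B had 3 higher with GemC1, and over all genes 147 were lower with GemC1 and 3 lower with GemC1 than with Mcidas.

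Removing single libraries gave 5 to 15 members higher with GemC1 and 10 to 19 with Mcidas. For IFT-A the ranges were 2 to 3 and 3 to 4, for IFT-B 2 to 8 and 5 to 11, for dynein-2 1 to 4 and 2 to 4, and for kinesin-2 0 in each. Related genes ranged from 8 to 13 and from 12 to 16. All genes ranged from 443 to 877 higher and 32 to 267 lower with GemC1, from 557 to 951 higher and 29 to 99 lower with Mcidas, and from 3 to 5 higher and 1 to 8 lower with GemC1 than with Mcidas. Without TMM the members of the GFP group summed to 1625 CPM. An X-box with up to 2 mismatches was found in 64.5% of member promoters and 37.7% of all genes, and with 0 mismatches in 0.9% of all genes.

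The stricter low-count filter left Kif17 and Ttc30a2 untested in both comparisons with GFP. With 3 libraries a group the smallest change called in a member was 0.40 on the log2 scale. Members near 1 CPM, Kif17 and Ttc30a2, carried standard errors of 0.67 to 0.83, and neither reached an adjusted p under 0.05. Kif17 was higher at an unadjusted p under 0.05 in both comparisons with GFP, whereas Ttc30a2 was not.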
